A study of Mus musculus with 15 samples.

Results

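The tumour necrosis factor (TNF) ligands and their receptors were described in RNA-seq of whole pituitary glands from mice with a deleted enhancer (PE) that drives Nr5a1 in the pituitary. Nr5a1 encodes Ad4BP/SF-1, a nuclear receptor that gonadotropes need. The members were the genes whose symbol is Tnfsf or Tnfrsf followed by a number, and 32 of the 55523 genes in the count table met this rule. They comprised 11 ligands, 20 receptors and Tnfsf13os, an antisense RNA that carries the name but encodes no ligand. Control mice carried the deletion on one chromosome (PE+/−), so every animal lacked at least 1 copy of the enhancer, and PE−/− mice lacked both. PE+/− males, PE+/− females and PE−/− males had 4 libraries each, and PE−/− females had 3. The labels do not give the age of these mice, and wild-type glands were not analysed here.

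TNF ligands are mostly membrane proteins that act as trimers, and their receptors recruit adaptors of the TRAF or death domain families to switch on NF-kB, kinase cascades or cell death. In the pituitary the best known member of the family is TNF itself, which macrophages and pituitary cells can release and which affects hormone secretion and the survival of anterior lobe cells. TNF has a symbol outside the rule, but both of its receptors, Tnfrsf1a and Tnfrsf1b, were members.

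Library totals ran from 12982794 to 30238443 estimated counts. The targeted gene Nr5a1 had 33.7 to 80.2 CPM (counts scaled to a common library size, with TMM factors) in the 8 PE+/− libraries and at most 0.897 CPM in the 7 PE−/− libraries. Its log2 level fell by 7.19 in PE−/− males (edgeR, SE 0.75, adjusted p = 0.0117) and by 5.72 in PE−/− females (edgeR, SE 0.24, adjusted p = 0.000253). The summed level of 4 gonadotrope markers was 2678 to 3965 CPM in PE+/− males, 504 to 2071 CPM in PE+/− females and 14.9 to 151 CPM in PE−/− glands of both sexes. Over all libraries most of it came from Fshb, with 235312 counts against 45272 for Lhb, 17625 for Gnrhr and 6132 for Nr5a1. In each sex edgeR called Nr5a1, Lhb and Gnrhr lower in PE−/− glands (adjusted p under 0.05), but not Fshb. The sum of 6 fibroblast and mural cell markers was 641 to 1185 CPM in PE+/− and 401 to 552 CPM in PE−/− glands, most of it from Rgs5, a pericyte gene. The sum of 3 posterior lobe markers was 3.83 to 17.3 CPM in PE+/− and 0.394 to 2.82 CPM in PE−/− females, which did not overlap. In males the sums were 1.48 to 72.4 against 1.21 to 44.5 CPM, which overlapped. Nkx2-1 and Rax lay at the floor of detection (defined below) in both female groups, and Nkx2-1 had no counts in PE−/− females. The female sum thus mainly describes Col25a1 (edgeR log2 fold change −3.00 ± 0.76 SE, adjusted p = 0.115). Female groups did not overlap for 18.6% of all genes tested. Prl, the lactotrope hormone gene, fell by 2.58 on the log2 scale in PE−/− females (edgeR, SE 0.21, adjusted p = 0.00698). The sum of 10 immune markers was 77.1 to 112 CPM in PE+/− and 64.6 to 99.3 CPM in PE−/− glands, and S100a8, a neutrophil gene, was at 0 in every library. The part of these cell type markers in the results below was not tested. In a whole gland, fewer cells of a type and less RNA per cell cannot be told apart.

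Promoter windows are shown here for Tnfrsf1a, which edgeR called in a comparison below, and for Tnfrsf12a and Tnfrsf23. Those 2 receptors were called in the main comparisons by DESeq2 but not by the main edgeR fits. Tnfrsf19, called only in a contrast added later, is not shown. The windows run from 250 bases before to 50 bases after the annotated start (RefSeq, GRCm38.p6, 5′ to 3′ on the gene's strand). They lie at chr6:125349473-125349772 on the plus strand (Tnfrsf1a), chr17:23677400-23677699 on the minus strand (Tnfrsf12a) and chr7:143685826-143686125 on the minus strand (Tnfrsf23). Capitals mark the motifs GGGCGG (GC box), CCAAT and TATAAA, on either strand.
Tnfrsf1a: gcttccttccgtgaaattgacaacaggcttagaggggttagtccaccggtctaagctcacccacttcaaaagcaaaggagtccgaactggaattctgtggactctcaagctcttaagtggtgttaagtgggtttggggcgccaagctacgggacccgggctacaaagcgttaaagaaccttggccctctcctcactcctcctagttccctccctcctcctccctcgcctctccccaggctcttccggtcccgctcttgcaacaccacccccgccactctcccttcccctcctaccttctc
Tnfrsf12a: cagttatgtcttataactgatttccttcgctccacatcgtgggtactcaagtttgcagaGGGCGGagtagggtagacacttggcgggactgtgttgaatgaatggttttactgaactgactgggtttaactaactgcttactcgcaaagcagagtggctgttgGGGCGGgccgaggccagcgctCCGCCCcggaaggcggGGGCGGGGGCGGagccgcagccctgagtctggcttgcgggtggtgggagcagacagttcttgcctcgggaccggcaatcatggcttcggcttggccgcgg
Tnfrsf23: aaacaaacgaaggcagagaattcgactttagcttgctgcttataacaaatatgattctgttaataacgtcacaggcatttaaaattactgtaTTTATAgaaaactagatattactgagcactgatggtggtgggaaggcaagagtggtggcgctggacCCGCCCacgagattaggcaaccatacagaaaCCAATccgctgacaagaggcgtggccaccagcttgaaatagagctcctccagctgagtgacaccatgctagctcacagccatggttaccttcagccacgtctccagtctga
The Tnfrsf1a window held none of these motifs, the Tnfrsf12a window held GC boxes only and the Tnfrsf23 window held all of them. The annotated starts of Tnfrsf1a differ, and its GENCODE start (chr6:125349362) lies before the first base of this window. The bases upstream of that start were not examined. Of 32851 mouse promoters of the same length, 35.7% held GGGCGG, 37.4% held CCAAT and 13.6% held TATAAA. RefSeq promoters were found for 24 of the 32 members (28 windows), of which 12 windows held GGGCGG, 4 held CCAAT and 4 held TATAAA. The letters CAAGGTCA and CAAGGCCA, which the Ad4BP/SF-1 receptor is known to bind, were in none of the 28 windows, against 1.56% and 2.40% of all promoters. A match or its absence describes these letters in this window only.

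Most of the family was scarce in the gland. Since about 4 counts stood for 1 fragment, 12 counts (3 fragments; 0.371 to 0.938 CPM by library) were taken as the floor of detection. Of the 32 members, 24 passed 12 counts in at least 1 library and 11 in all 15. A further 3, Tnfsf14, Tnfrsf25 and Tnfrsf4, had counts but never more than 8. The remaining 5, Tnfrsf17, Tnfsf12, Tnfsf13, Tnfsf18 and Tnfsf4, had no count in any library, which allows up to 12 counts in each. Tnf itself, Lta (lymphotoxin alpha) and Cd40lg (the CD40 ligand) were also at 0 counts in every library. The zeros of Tnfsf12 (TWEAK) and Tnfsf13 (APRIL) need a reservation, because the locus also held Tnfsfm13, a read-through gene that joins both and had 29 to 110 counts in every library. The exons of Tnfsfm13 cover 48.3% of the exon bases of Tnfsf12 and 60.0% of those of Tnfsf13, and whether reads of either gene were assigned to Tnfsfm13 was not tested.

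Levels between genes were compared as CPM per kilobase of annotated exon, averaged over the 15 libraries. Receptors led the order. Tnfrsf12a (Fn14, the TWEAK receptor) had 19.6 ± 4.85 CPM per kb (SD, n = 15) and Tnfrsf1a (the p55 TNF receptor) 16.3 ± 9.41 CPM per kb, a difference smaller than their spread. The next pair was Tnfsf10 (TRAIL, a ligand of death receptors) with 3.67 ± 1.11 CPM per kb and Tnfrsf11b (osteoprotegerin, a secreted decoy receptor) with 3.47 ± 1.44 CPM per kb, which also lay within each other's spread. Tnfrsf19 (TROY, a receptor of progenitor cells) with 1.92 ± 0.509 and Tnfsf9 (the 4-1BB ligand) with 1.89 ± 0.747 CPM per kb followed. The other members had means of 1.29 CPM per kb (Tnfrsf21, death receptor 6) or less.

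**Figure D1:**
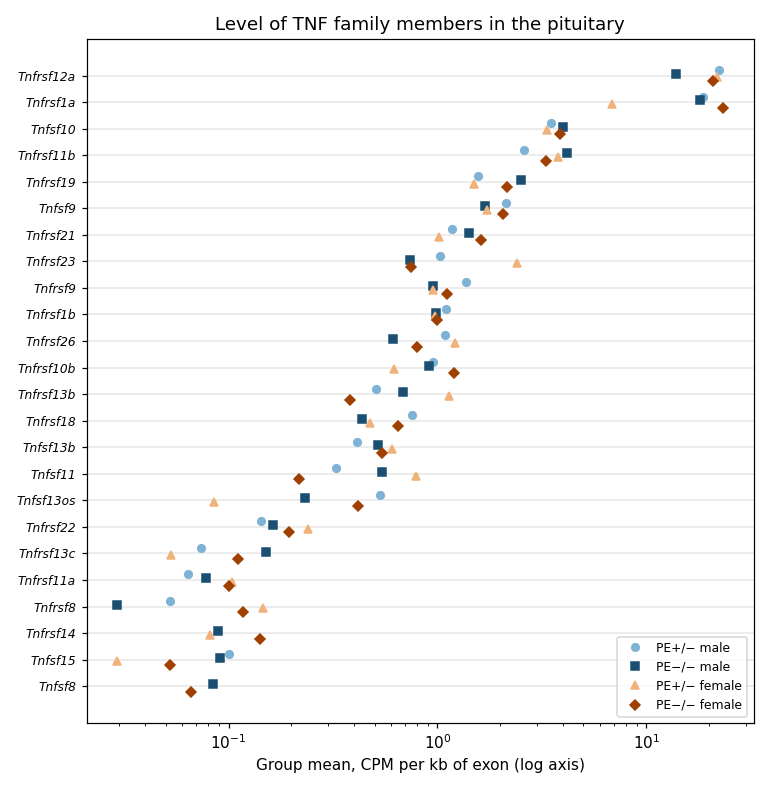
Group mean level (CPM per kb of exon, log axis) of the 24 members that passed 12 counts in at least 1 library, ordered by their mean over 15 libraries, with 1 symbol for each of the 4 groups; a group mean of 0 has no symbol. Tnfrsf12a (19.6 CPM per kb over all libraries) and Tnfrsf1a (16.3) stand apart from the rest.

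Ligands and their known receptors were often unequally represented. The group means below are in CPM and not divided by exon length, so they do not order a ligand against its receptor. Tnfrsf12a was the highest member per kilobase, with group means of 26.9 to 42.9 CPM, while its ligand Tnfsf12 was listed at 0. Tnfsf10 had group means of 17.6 to 21.2 CPM and its death receptor Tnfrsf10b 3.38 to 6.58 CPM. Tnfsf11 (RANKL) had 0.485 to 1.76 CPM, its signalling receptor Tnfrsf11a (RANK) 0.384 to 0.622 CPM and its decoy Tnfrsf11b 7.33 to 11.7 CPM. Among the B cell factors and their receptors, Tnfsf13b (BAFF) had 2.84 to 4.14 CPM and Tnfrsf13b (TACI) 1.08 to 3.22 CPM, whereas Tnfrsf13c (the BAFF receptor) had 0.109 to 0.308 CPM and Tnfrsf17 (BCMA) was at 0. Tnfsf9 and its receptor Tnfrsf9 (4-1BB) had 2.18 to 2.74 and 2.60 to 3.72 CPM, although 14.9% of the exon bases of Tnfsf9 are covered by Gm11110 on the other strand. Tnfrsf18 (GITR) had 0.666 to 1.16 CPM with its ligand Tnfsf18 at 0, but 27.2% of its exon bases are covered by the antisense gene Gm16008. The other pairs were Tnfsf14 (LIGHT) with Tnfrsf14, Tnfsf4 (OX40 ligand) with Tnfrsf4 (OX40), Tnfsf8 (CD30 ligand) with Tnfrsf8 (CD30), and Tnfsf15 (TL1A) with Tnfrsf25 (death receptor 3). No group mean of these 8 genes was above 0.505 CPM. Per kilobase of exon (mean ± SD, n = 15) the order of some pairs differed from that in CPM. Tnfrsf13b had 0.696 ± 0.536 and Tnfsf13b 0.519 ± 0.219 CPM per kb, and Tnfsf9 had 1.89 ± 0.747 and Tnfrsf9 1.10 ± 0.532. Tnfsf11 had 0.485 ± 0.320 and Tnfrsf11a 0.0858 ± 0.0629 CPM per kb.

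The first comparison asked how the family differed between PE−/− and PE+/− females. Only Tnfrsf1a was past the threshold (adjusted p under 0.05), and it rose. Of the 32 members, 19 were tested and 1 was called, against 1.05% of all 18085 genes tested (0.348% called higher) with edgeR. DESeq2 called 2, against 7.91% of all genes. The median log2 fold change was −0.06 over the tested members and 0.00175 over all genes. Unadjusted p was under 0.05 for 5 members, against 16.1% of all genes. Groups did not overlap for 5 members, against 18.6% of all genes, with 3 members higher in PE−/− (9.64% of all genes) and 2 lower (8.95%).

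Tnfrsf1a (MSTRG.21088 in the table, ENSMUSG00000030341, chr6:125349362-125362484, plus strand, mm10) encodes the receptor through which soluble TNF mainly signals. It had 19.3, 19.9, 14.05 and 17.6 CPM in the PE+/− females (247, 476, 258 and 288 counts) and 67.0, 58.3 and 56.5 CPM in the PE−/− females (1084, 1883 and 1291 counts). Every PE−/− female was thus above every PE+/− female, and the spread within each genotype was small. The means were 17.7 ± 2.64 CPM (SD, n = 4) and 60.6 ± 5.59 CPM (n = 3), an edgeR log2 fold change of 1.77 ± 0.17 SE with a quasi-likelihood adjusted p of 0.00927. The gene stayed past the threshold in all 7 fits that left out 1 female library (edgeR adjusted p 0.0156 to 0.0443). The call was lost when the spread was estimated from all 15 libraries (edgeR log2 fold change 1.77 ± 0.49 SE, adjusted p = 0.066). It was also lost with a block for the replicate number (edgeR adjusted p = 0.207). Over all 15 alternatives the adjusted p of Tnfrsf1a ran from 3.45e-17 to 0.207. No annotated gene overlaps the exons of Tnfrsf1a, and none of its 75-base stretches occurs in the transcripts of another gene. Rows of this count table can still switch between libraries of a group. Tnip1, a gene of the NF-kB list below, had 6, 2 and 473 counts in the PE−/− females. Whether the assignment of reads to loci affects the counts of Tnfrsf1a was not tested.

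In males the same receptor split each genotype. The PE+/− males had 18.4, 69.4, 84.5 and 22.3 CPM (261, 1497, 1386 and 345 counts) and the PE−/− males 60.6, 47.4, 17.9 and 61.8 CPM (1199, 1237, 383 and 1086 counts). There were low libraries at the level of the PE+/− females and high libraries near or above the level of the PE−/− females in both genotypes, so that the groups overlapped. The means were 48.7 ± 33.3 and 46.9 ± 20.4 CPM (SD, n = 4 each), an edgeR log2 fold change of −0.05 ± 0.56 SE with an adjusted p of 0.996. The difference between the genotype effects of the sexes (females minus males) was 1.83 on the log2 scale (SE 0.67) and did not pass the threshold (adjusted p = 0.355 with edgeR). The rise in females was thus not shown to differ from the change in males. Tnfrsf1b, the second TNF receptor, which immune and endothelial cells mainly carry, had group means of 3.72 to 4.21 CPM, and its log2 fold change was 0.02 (SE 0.33) in females and −0.17 (SE 0.35) in males.

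**Figure D2:**
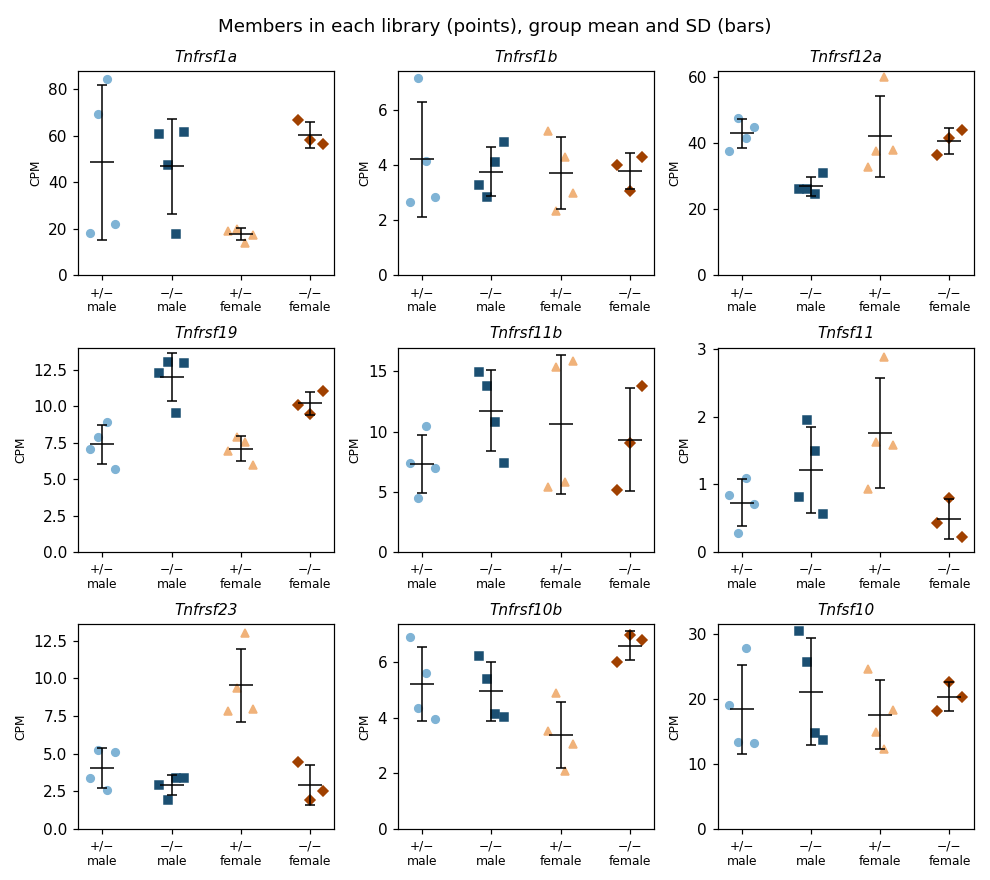
CPM of 9 members in each library (points) for the 4 groups, with the group mean and SD (bars; n = 4, and n = 3 for PE−/− females); each panel starts at 0. For Tnfrsf1a the 4 PE+/− females lie between 14.05 and 19.9 CPM and the 3 PE−/− females between 56.5 and 67.0 CPM, while both male groups hold low and high libraries.

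The other members with separate female groups did not pass the threshold. Tnfrsf23 (a decoy receptor for TRAIL that lacks a death domain) had 7.82, 9.34, 13.01 and 7.99 CPM in PE+/− and 4.45, 1.92 and 2.496 CPM in PE−/− females. The PE−/− libraries were all lower, at means of 2.95 ± 1.33 (SD, n = 3) against 9.54 ± 2.41 CPM (n = 4), and the edgeR log2 fold change was −1.71 ± 0.35 SE with an adjusted p of 0.0767. It was past the threshold with DESeq2 (log2 fold change −1.72, adjusted p = 0.000404) and in one edgeR fit on all 15 libraries (−1.70, adjusted p = 0.0178), and over its 15 alternatives the adjusted p ran from 0.000404 to 0.252. Of the 75-base stretches of Tnfrsf23, 13.7% also occur in transcripts of its neighbour Tnfrsf22 or of the antisense gene E230032D23Rik, which covers 4.14% of its exon bases, so its counts are uncertain to that extent.

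Tnfrsf10b, the mouse TRAIL death receptor, had 3.52, 4.90, 2.07 and 3.05 CPM in PE+/− and 5.99, 6.96 and 6.79 CPM in PE−/− females. All PE−/− libraries lay higher, and the edgeR log2 fold change was 0.95 ± 0.30 SE with an adjusted p of 0.181. Tnfsf11, the ligand of RANK, had 12, 39, 53 and 26 counts in PE+/− and 7, 26 and 5 counts in PE−/− females. In CPM these were 0.938, 1.63, 2.89 and 1.59 against 0.432, 0.804 and 0.219, so that the groups were separate but some libraries lay at or under the floor of 12 counts, and the edgeR log2 fold change was −1.83 ± 0.61 SE with an adjusted p of 0.195. Tnfrsf11b, its decoy receptor, had 5.39, 15.3, 5.83 and 15.9 CPM in PE+/− and 5.19, 9.10 and 13.8 CPM in PE−/− females, with overlap (log2 fold change −0.19, SE 0.51). Tnfsf10, the ligand shared by Tnfrsf10b and Tnfrsf23, had means of 17.6 ± 5.30 (SD, n = 4) and 20.4 ± 2.28 CPM (n = 3), and its log2 fold change was 0.21 (SE 0.25).

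Between PE−/− and PE+/− males no member was past the threshold. With edgeR, 18 members were tested and 0 called, against 0.132% of 17392 genes, and DESeq2 called 1, Tnfrsf12a, against 1.18% of the genes. At an unadjusted p under 0.05 there were 2 members, against 6.14% of all genes. These members, Tnfrsf12a and Tnfrsf19, were also the ones whose groups did not overlap, against 4.56% of all genes. The median log2 fold change was −0.06 over the tested members and 0.00266 over all genes.

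Tnfrsf12a, a small receptor that many tissues induce on injury, had 37.5, 47.6, 41.6 and 44.9 CPM in PE+/− males and 26.1, 26.0, 24.6 and 31.1 CPM in PE−/− males. Every PE−/− male was lower than every PE+/− male. The means were 42.9 ± 4.37 and 26.9 ± 2.84 CPM (SD, n = 4 each) and the log2 fold change was −0.67 (edgeR, SE 0.13, adjusted p = 0.183). DESeq2 gave a log2 fold change of −0.68 (adjusted p = 0.000335), and over the 16 alternatives the adjusted p ran from 0.000335 to 0.726. In females it had 32.7, 37.5, 60.1 and 37.8 CPM in PE+/− and 36.3, 41.5 and 43.9 CPM in PE−/− glands, with overlap (edgeR log2 fold change −0.06 ± 0.23 SE, adjusted p = 0.944). The genotype effects of the sexes differed by 0.62 (SE 0.26), at an edgeR adjusted p of 0.429, not past the threshold. The fibroblast and mural cell marker sums also did not overlap between the male groups (641 to 772 against 401 to 552 CPM), nor between the female groups (704 to 1185 against 441 to 535 CPM), where Tnfrsf12a overlapped. These sums follow Rgs5 (edgeR log2 fold change −0.80 ± 0.23 SE, adjusted p = 0.505, in males and −1.21 ± 0.29 SE, adjusted p = 0.1, in females), and the markers did not move together. The median log2 fold change of the 6 was −0.17 in males and −0.03 in females, where Col1a2 fell (−1.95, SE 0.23, edgeR adjusted p = 0.0207) and Pdgfra had 0.67 (SE 0.20, edgeR adjusted p = 0.165).

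Tnfrsf19 was the member whose PE−/− libraries all lay above the PE+/− libraries in both sexes. The share of all genes that did so in both sexes was not computed. By single sex, 4.56% of all genes were separate in males (either direction) and 9.64% were separate and higher in PE−/− females. It had 7.05, 7.88, 8.90 and 5.69 CPM in PE+/− and 12.3, 13.1, 9.56 and 12.98 CPM in PE−/− males. The PE+/− females had 6.96, 7.87, 7.57 and 5.98 CPM and the PE−/− females 10.1, 9.47 and 11.04 CPM. Neither sex showed any overlap between genotypes. The edgeR log2 fold change was 0.70 ± 0.19 SE with an adjusted p of 0.422 in males and 0.51 (edgeR, SE 0.17, adjusted p = 0.196) in females, so the gene passed the threshold in neither sex alone. The sum of the stem and folliculostellate markers Sox2, Sox9 and S100b was 35.9 to 97.5 CPM in PE+/− and 71.6 to 102 CPM in PE−/− males, and 35.4 to 57.4 against 59.7 to 103 CPM in females. Most of it came from Sox9, with 18351 counts over all libraries against 2364 for Sox2 and 260 for S100b, so the sum mainly describes 1 gene.

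The mean of the genotype effects of both sexes, a contrast added after seeing the data, was tested in one edgeR fit on all 15 libraries. It called 2 of 21 tested members, Tnfrsf19 and Tnfrsf23, against 2.75% of 19286 genes. Tnfrsf19 rose by 0.61 on the log2 scale (edgeR, SE 0.12, adjusted p = 0.0162), and 1 of the 15 fits that left out a library lost the call (edgeR adjusted p = 0.0597 without PE−/− female replicate 3). Tnfrsf23 fell by 1.09 (edgeR, SE 0.23, adjusted p = 0.024), and 2 of 15 such fits lost the call (edgeR adjusted p = 0.0683 and 0.0749 without PE−/− female replicates 2 and 3). In males alone Tnfrsf23 had 3.38, 5.24, 2.56 and 5.11 CPM in PE+/− and 2.93, 1.95, 3.37 and 3.41 CPM in PE−/− glands, which overlapped (edgeR log2 fold change −0.49 ± 0.30 SE, adjusted p = 0.945). Tnfrsf1a did not pass the threshold in this contrast (edgeR log2 fold change 0.86 ± 0.34 SE, adjusted p = 0.229).

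The remaining named members overlapped between the male genotypes. Tnfrsf11b had 7.40, 4.50, 10.4 and 6.98 CPM in PE+/− and 14.9, 13.8, 10.8 and 7.40 CPM in PE−/− males (edgeR log2 fold change 0.68 ± 0.30 SE, adjusted p = 0.818). Only the lowest PE−/− library lay within the PE+/− range. Tnfsf11 had 12, 6, 18 and 11 counts in PE+/− and 16, 51, 32 and 10 counts in PE−/− males (edgeR log2 fold change 0.73 ± 0.55 SE, adjusted p = 0.972). Tnfrsf10b had means of 5.21 ± 1.34 and 4.95 ± 1.05 CPM (SD, n = 4 each), a log2 difference of −0.07 (SE 0.25). Tnfsf10 had means of 18.4 ± 6.91 and 21.2 ± 8.27 CPM (log2 fold change 0.20, SE 0.34).

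The members not yet described had overlapping genotype groups in both sexes where tested. Over all tested members the log2 fold change ran from −1.19 (Tnfsf13os, at most 17 counts in any library) to 0.73 (Tnfsf11) in males and from −1.83 (Tnfsf11) to 1.77 (Tnfrsf1a) in females. Tnfrsf21 had log2 fold changes of 0.27 in males and 0.65 in females. Tnfrsf22 and Tnfrsf26, which lie beside Tnfrsf23 on chromosome 7, had 0.19 and −0.83 in males and −0.32 and −0.62 in females, and 20.8% of the 75-base stretches of Tnfrsf22 occur in other transcripts, those of Tnfrsf23 included.

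**Figure D3:**
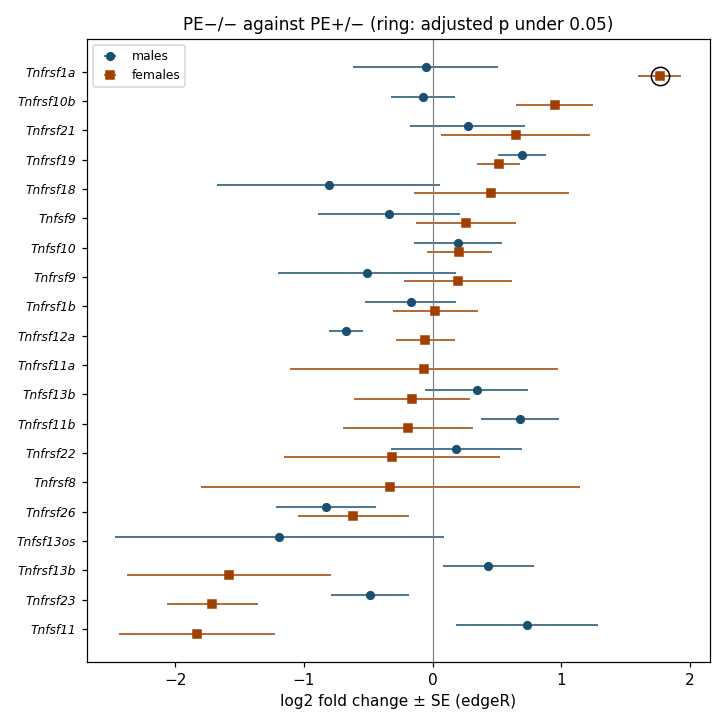
log2 fold change of PE−/− against PE+/− (points, ± SE) for each tested member in males (circles, 18 members) and females (squares, 19 members), ordered by the female value where there is one. The ring marks the only value past the threshold, Tnfrsf1a in females (1.77), and Tnfrsf19 lies above 0 in both sexes (0.70 and 0.51).

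The interaction of genotype and sex, tested on all 15 libraries, called 0 of 21 tested members with edgeR and 0 with DESeq2, against 0.161% and 2.04% of 19286 genes. An unadjusted p was under 0.05 for 6 members, against 10.1% of all genes. These were Tnfsf11 (−2.56, SE 0.84), Tnfrsf1a (1.83, SE 0.67), Tnfrsf10b (1.03, SE 0.38), Tnfrsf23 (−1.22, SE 0.46), Tnfrsf12a (0.62, SE 0.26) and Tnfrsf13b (−2.01, SE 0.86), each given as the female minus the male log2 fold change. Their edgeR adjusted p ran from 0.293 to 0.445.

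The sexes were compared within each genotype next. These comparisons use the same libraries as those above and are not independent of them. Between PE+/− females and PE+/− males no member was past the threshold with edgeR (17 tested, 0 called, against 0.67% of 17163 genes), 3 had an unadjusted p under 0.05, against 13.5% of all genes, and DESeq2 called 1, Tnfrsf23, against 5.24%. Tnfrsf23 was also the only member whose groups did not overlap, against 9.75% of all genes. It was higher in the females (9.54 ± 2.41 against 4.07 ± 1.32 CPM, SD, n = 4 each; edgeR log2 fold change 1.23 ± 0.29 SE, adjusted p = 0.118), and the adjusted p ran from 0.00543 (DESeq2) to 0.378 over 16 alternatives. Tnfrsf1a had an edgeR log2 fold change of −1.45 ± 0.49 SE with an adjusted p of 0.245 and Tnfsf11 one of 1.27 (edgeR, SE 0.52, adjusted p = 0.338).

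Between PE−/− females and PE−/− males no member was called either (18 tested, 0 called by edgeR, against 0.0494% of 18217 genes, and 0 by DESeq2, against 0.225%). An unadjusted p under 0.05 was found for 1 member, Tnfrsf12a, against 3.37% of all genes, and it was also the only one with separate groups, against 5.24%. It was higher in the PE−/− females, at 40.6 ± 3.87 CPM (SD, n = 3) against 26.9 ± 2.84 CPM (n = 4), an edgeR log2 fold change of 0.59 ± 0.13 SE with an adjusted p of 0.997. Tnfsf11 had a log2 fold change of −1.29 (SE 0.64) and Tnfrsf10b one of 0.41 (SE 0.21), both at an edgeR adjusted p of 0.997.

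**Figure D4:**
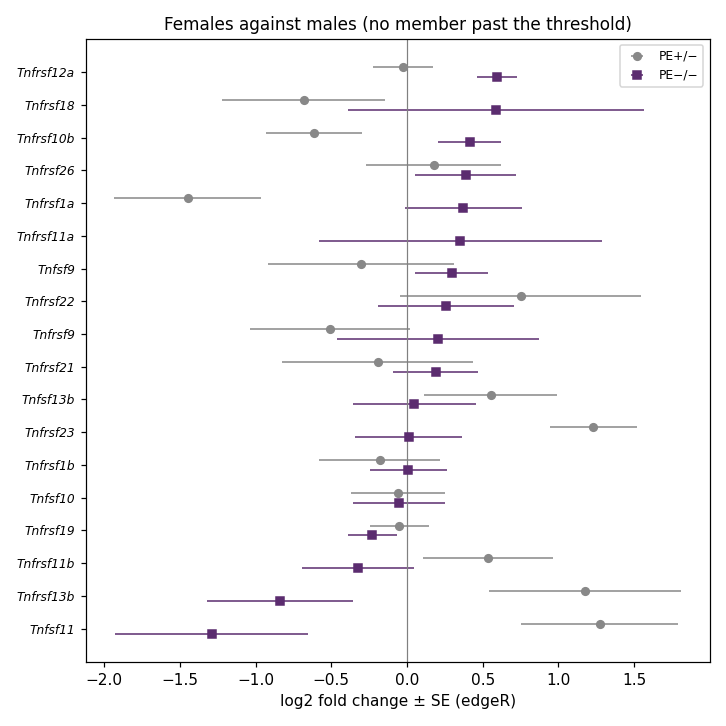
log2 fold change of females against males (points, ± SE) for each tested member in PE+/− (circles, 17 members) and PE−/− glands (squares, 18 members). No value is past the threshold; Tnfrsf23 (1.23 in PE+/−) and Tnfrsf12a (0.59 in PE−/−) are those whose groups do not overlap.

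The wider TNF pathway was counted in 4 lists, and no gene of any list was past the threshold in any of the 5 comparisons with edgeR. Of the 69 genes of the lists, 56 were tested in males, 57 in females, 56 between PE+/− sexes, 59 between PE−/− sexes and 60 in the interaction, and 2, 3, 6, 3 and 5 of them had an unadjusted p under 0.05. The shares over all genes tested were 6.14%, 16.1%, 13.5%, 3.37% and 10.1% in the same order. The lists were not run with DESeq2. The first list held 15 ligands and receptors with other symbols, of which 9 were tested in males and 10 in females. Its median log2 fold change between genotypes was 0.35 in males and 0.19 in females. Relt, a receptor that binds no known TNF ligand, had means of 15.3 ± 5.52 and 30.5 ± 4.22 CPM in PE+/− and PE−/− males (SD, n = 4 each; edgeR log2 fold change 0.997 ± 0.29 SE, adjusted p = 0.483) and 10.2 ± 5.25 (n = 4) and 28.0 ± 10.8 CPM (n = 3) in the female groups (log2 fold change 1.45 ± 0.47 SE, adjusted p = 0.191). It was the only gene of this list with an unadjusted p under 0.05 between genotypes, in either sex.

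Of 29 adaptors, kinases and ubiquitin enzymes that act below the receptors, 28 were tested, with medians of −0.02 in males and 0.05 in females. Traf1, an adaptor that NF-kB induces, had means of 3.50 ± 0.665 and 5.997 ± 0.808 CPM in PE+/− and PE−/− males (edgeR log2 fold change 0.78 ± 0.21 SE, adjusted p = 0.416), and it was the only one with an unadjusted p under 0.05 between genotypes. All 10 NF-kB subunits and inhibitors were tested, with medians of −0.01 in males and −0.15 in females. In females Nfkb2, the p100 precursor (10.2 ± 2.43 against 5.69 ± 1.39 CPM; edgeR log2 fold change −0.84 ± 0.27 SE, adjusted p = 0.187), and Nfkbib, an inhibitor of NF-kB (36.8 ± 3.60 against 26.7 ± 0.686 CPM; −0.47, SE 0.13, edgeR adjusted p = 0.141), had separate groups, with PE−/− lower, so 2 of the 10 were separate against 18.6% of all genes. In males only Rela, the p65 subunit, had separate groups (lower in PE−/−; edgeR log2 fold change −0.25 ± 0.12 SE, adjusted p = 0.829), 1 of 10 against 4.56% of all genes. Of 15 genes that TNF is known to induce, 9 were tested in each sex and 0 had an unadjusted p under 0.05 between genotypes, with medians of 0.08 and −0.13. Sod2, one of these, had separate female groups with PE−/− higher (258 to 287 against 300 to 305 CPM). So did Traf2 (10.4 to 35.4 against 37.4 to 37.9 CPM) and Cyld (86.5 to 102 against 104 to 107 CPM) of the second list. Of all genes, 9.64% were separate and higher in PE−/− females. In males Relt and Traf1 were separate with PE−/− higher. Ptgs2 (cyclooxygenase 2), which did not pass the filter in these comparisons, was at 0 in each of 4 PE+/− males, whereas the PE−/− libraries of that sex held 4, 13, 27 and 13 counts. In females it had 0, 0, 0 and 6 counts in PE+/− and 24, 19 and 8 counts in PE−/− glands. In CPM the male groups were separate, although one PE−/− library lay under the floor of 12 counts, and the female groups overlapped (at most 0.366 in PE+/− and at least 0.350 CPM in PE−/−).

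**Figure D5:**
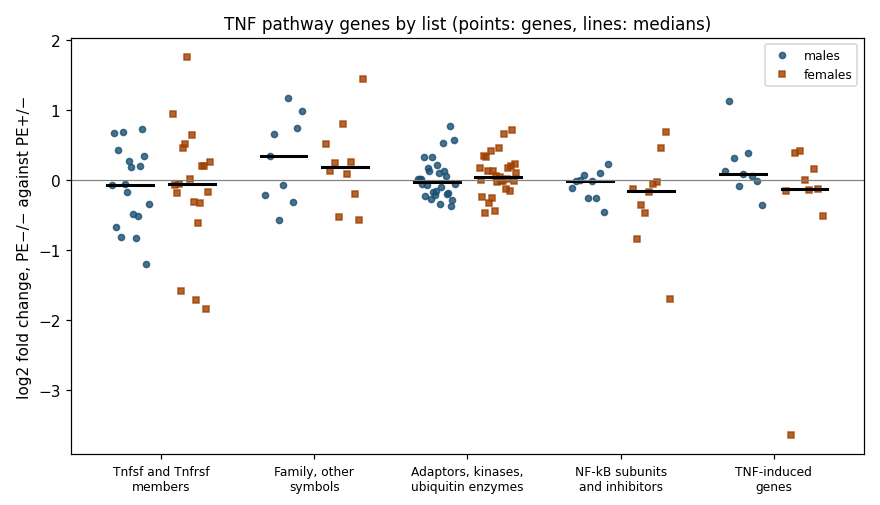
log2 fold change of PE−/− against PE+/− for each tested gene (points; circles, males; squares, females) of the Tnfsf and Tnfrsf members and of 4 pathway lists, with the median of each list as a line. The medians lie between −0.15 and 0.35, and Tnfrsf1a in females (1.77) is the only point past the threshold.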

How the data were processed

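RNA-seq was performed on whole pituitaries, with 15 libraries of single samples; whether each came from 1 animal is not stated, so p-values measure the spread between samples. Per the study's methods and the submitters' processing notes, paired reads were trimmed (cutadapt 4.2), aligned to mm10 (STAR 2.5.4a) and counted (featureCounts 1.6.1) by the authors. The values deposited by the authors were whole-number estimated counts with no normalization, and their locus names and steps of about 4 counts per fragment are those of an assembly-based export that the methods do not state. Strand use in counting is not known, which leaves overlapping and antisense genes uncertain. Of the table's columns, 0 were left unmatched to a sample.

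Each symbol was given the row with the most counts. Genes kept by filterByExpr (minimum count 10, minimum total 15) were scaled by TMM factors and tested with the quasi-likelihood F test of edgeR 4.0.16 in R 4.3.3, two-sided, on the libraries compared, with Benjamini-Hochberg adjustment over all genes and a threshold of 0.05. The SE is the log2 fold change divided by the square root of F. Coordinates and exon lengths are those of GENCODE M21. Sharing with other genes was counted as stretches of 75 bases over annotated transcripts. The floor covers counting error only. All 21 replicate pairs differed by more than counting noise (chi-square per degree of freedom 71.4 to 231, genes with at least 20 counts). Alternatives were DESeq2 1.42.0, other scalings, no filter, counts divided by 4, summing per locus, a block for the replicate number, one fit on 15 libraries and the omission of single libraries. Scripts were tested on simulated data.

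Members, pathway lists and markers were chosen with earlier results of these data known. Named with full values were members past the threshold and the 3 with the smallest adjusted p in each comparison. The 5 members highest per kilobase and both TNF receptors were also named with full values. Relt, Traf1, Traf2, Cyld, Sod2, Nfkb2, Nfkbib, Rela, Ptgs2 and Tnfrsf13b were named after their values were seen. So were the single markers Fshb, Lhb, Gnrhr, Prl, Rgs5, Col1a2, Pdgfra, Col25a1, Nkx2-1 and Rax.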

Additional observations from a re-analysis of the deposited data

How the results depend on the processing

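Without PE+/− or PE−/− libraries one at a time, the count of members past the threshold stayed at 1 in females (7 fits, Tnfrsf1a) and at 0 in the other 4 comparisons (38 fits). DESeq2 called 1 member in males (Tnfrsf12a), 2 in females (Tnfrsf1a and Tnfrsf23) and 1 between PE+/− females and males (Tnfrsf23). One fit on all 15 libraries called Tnfrsf23 in place of Tnfrsf1a in females; the cause was not tested. The labels do not say whether the replicate numbers pair the samples. Correlations of same-numbered deviations ran from −0.081 to 0.132. The largest correlation was a same-numbered one in females (0.132, against at most 0.0992 for other numbers) and between PE−/− sexes (0.107 against 0.1). In males and between PE+/− sexes it was one of other numbers (0.12 and 0.165). The largest library total of every group was that of replicate number 2. With the number as a block, 0 members were called in females (Tnfrsf1a log2 fold change 1.77, adjusted p = 0.207, with 1 gene called in all against 189) and 1 for the mean of both sexes (Tnfrsf19, with Tnfrsf23 at an adjusted p of 0.0708), and it changed no other call of a member. Over all genes, DESeq2 called 206, 1431, 900, 41 and 394 genes in the male, female, PE+/−, PE−/− and interaction comparisons, against 23, 189, 115, 9 and 31 with edgeR, and one fit on 15 libraries called 37, 714 and 421 in the first 3 of these. With no filter, 123 genes were called in females and 66 between PE+/− sexes, and with the replicate block 0, 1, 0, 0 and 11 in the 5 comparisons.

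Signs turned only for values that did not pass the threshold. With library totals, Tnfrsf10b (0.019) and Tnfrsf1a (0.0326) in males, Tnfrsf12a (0.0363), Tnfrsf19 (0.0164) and Tnfsf10 (0.00802) between PE+/− sexes, Tnfrsf1b (−0.0105) and Tnfrsf23 (−0.035) between PE−/− sexes and Tnfsf10 in the interaction (−0.0772) turned. With counts divided by 4, Tnfrsf1b in females (−5.77e-06) and Tnfrsf23 between PE−/− sexes (−0.0165) turned, and with the replicate block Tnfrsf1a in males (0.15), Tnfrsf11b (0.12) and Tnfrsf1b (−0.0102) in females and Tnfsf10 in the interaction (−0.028). Leaving out 1 library gave ranges across 0 in males for Tnfrsf10b (−0.205 to 0.0938), Tnfrsf1a (−0.32 to 0.35), Tnfrsf1b (−0.33 to 0.22) and Tnfsf10 (−0.0328 to 0.473). In females these were Tnfrsf11b (−0.57 to 0.10), Tnfrsf12a (−0.16 to 0.16) and Tnfrsf1b (−0.15 to 0.24). Between PE+/− sexes they were Tnfrsf12a (−0.247 to 0.0671), Tnfrsf19 (−0.162 to 0.0485), Tnfrsf1b (−0.40 to 0.20) and Tnfsf10 (−0.28 to 0.21), and between PE−/− sexes Tnfrsf1b (−0.11 to 0.15), Tnfrsf23 (−0.40 to 0.25) and Tnfsf10 (−0.21 to 0.18). In the interaction they were Tnfrsf1b (−0.18 to 0.42) and Tnfsf10 (−0.26 to 0.24). The median of the tested members crossed 0 in females (−0.07 to 0.22), males (−0.27 to 0.07) and between PE+/− sexes (−0.18 to 0.12).

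Depth limits the low members: 21 of 32 were tested in any comparison, and a change of the 8 that never passed 12 counts was not detectable at this depth. For Tnfsf12 and Tnfsf13, which are among these, whether the zeros come from assignment of reads to Tnfsfm13 was not tested. No value of the 17 members tested throughout, in the 51 groups of 4 libraries they gave, lay apart from its group by Dixon's criterion.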
